A study of Mus musculus with 54 samples.

Results

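Spermatocytes of mice that lack BORIS and carry 1 intact copy of *Ctcf* were compared with wild-type (WT) spermatocytes, using the 5 libraries of these cells among the 54 samples of the series. They are 3 libraries of the combined mutant (CM, Ctcf+/-Boris-/-) and 2 of WT (Ctcf+/+Boris+/+), all from 3-month-old C57BL/6 males, and were taken by the genotype and cell type in their titles. BORIS KO (Ctcf+/+Boris-/-) and CTCF HET (Ctcf+/-Boris+/+) spermatocytes, with 3 libraries each, and CM and WT round spermatids and whole testis, with 3 libraries each, were used for comparison only. The CM animals came from CTCF HET females and BORIS KO males, both mutations were present in every cell of the body, and germ cells of 4 mice were pooled in each preparation. The spermatocytes were separated by elutriation and sorted on DNA content, so a library holds spermatocytes of several meiotic stages together with any other cell in the gate, and fewer cells of a type and less RNA per cell cannot be told apart in it.

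CTCF is a zinc finger protein that binds DNA in all cells, shapes chromatin loops together with cohesin and often lies at promoters. BORIS, encoded by *Ctcfl*, is its testis paralog, which has a similar zinc finger domain and shares many of its sites. During the first meiotic division the X and Y chromosomes are unpaired over most of their length, are gathered into the sex body and are transcriptionally silenced, a process known as meiotic sex chromosome inactivation. Part of the genes stay repressed in round spermatids.

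Library totals were 83897506 and 81570481 counts in WT and 82900379, 76532040 and 70716315 in CM. The libraries differed less in these totals than in the number of genes seen: 17683 and 17631 genes had a count in WT, against 16666, 14145 and 15168 in CM libraries 1, 2 and 3. Genes with 1 to 9 counts numbered 3758 and 3752 in WT, 2074 in CM library 1, 338 in CM library 2 and 782 in CM library 3, and 33, 733 and 377 genes with at least 10 counts in both WT libraries were at 0 in the 3 CM libraries. CM library 1 lay nearest to WT, with a correlation across genes of 0.992 and 0.990 to the WT libraries on the log2(CPM + 1) scale, against 0.966 to 0.978 for CM libraries 2 and 3 and 0.999 for the WT pair. CPM is the count of a gene scaled to a library total of 1e6.

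The spermatocyte markers *Hspa2* (3328 and 3400 CPM in WT, 3162 to 3563 CPM in CM) and *Piwil1* (1373 and 1473 CPM in WT, 1280 to 1391 CPM in CM) were abundant in all 5 libraries. *Ccna1* was below WT in every CM library (187 and 197 CPM in WT, 137 to 151 CPM in CM, log2 fold change -0.50 ± 0.09). *Sycp3* was above WT in every CM library (420 and 344 CPM in WT, 633 to 764 CPM in CM, 0.76 ± 0.15). Neither was called (adjusted p = 0.0580 and 0.0593 by edgeR, 6.91e-05 and 0.000278 by DESeq2). With the trend on base composition, described below, removed, they were at -0.42 and 0.22. *Hba-a1*, *Hbb-b1* and *C1qa*, which define red blood cells and macrophages, were at 0 in all 5 libraries. *Hba-a1* and *Hbb-b1* were also at 0 in every CTCF HET and BORIS KO spermatocyte library and every WT and CM round spermatid library. How their reads were counted is not given, so these zeros cannot tell whether red blood cells were absent. *Csf1r*, another macrophage marker, had 1 count in WT library 1 and 4 in CM library 1. Over 16 macrophage and leukocyte markers the sum was 6.7 and 6.4 CPM in WT and 6.3, 5.8 and 12.4 CPM in CM libraries 1, 2 and 3. *Insl3*, which defines Leydig cells, was at 0 in all but WT library 2 with 0.0123 CPM. *Cyp17a1*, a steroid hydroxylase of Leydig cells, was at 0.250 and 0.123 CPM in WT and at 1.00, 2.14 and 0.891 CPM in CM, above WT in all 3 libraries (log2 fold change 2.77 ± 0.69, adjusted p = 0.0751 by edgeR and 0.00306 by DESeq2). *Dmc1*, the meiotic recombinase, was at 0.110 to 0.627 CPM. Summed over all 18 Sertoli cell markers the level was 21.5 and 21.9 CPM in WT and 22.6 to 28.04 CPM in CM, and over all 12 Leydig cell markers 30.4 and 31.8 CPM in WT and 31.1 to 33.99 CPM in CM.

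The libraries labelled CM held no less *Ctcf* than WT. It was at 31.9 and 30.9 CPM in WT and at 86.9, 33.3 and 32.9 CPM in CM, a log2 fold change of 0.62 ± 0.43 (SE) with an adjusted p of 0.376 (edgeR's quasi-likelihood test with Benjamini-Hochberg adjustment, as for all adjusted p-values here). CM library 1 stood above the other 4 libraries, which lay within a narrow range. *Ctcfl* was at 0.0613 and 0.0715 CPM in WT and at 0, 0.379 and 0 CPM in CM, too few counts to check the deletion.

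The gene next to *Ctcf* separated the genotypes instead. *Rltpr*, which encodes the actin regulator CARMIL2, starts 3352 bases beyond the end of *Ctcf* on the same strand of chromosome 8. It was at 1.51 and 1.54 CPM in WT and at 73.5, 52.4 and 45.1 CPM in CM, 35.3-fold higher (log2 fold change 5.14 ± 0.27, adjusted p = 0.00778), the smallest adjusted p of all genes. Its log2 difference from WT was also 5.04 in CTCF HET spermatocytes, 5.52 in CM round spermatids and 5.24 in CM whole testis, and 0.67 (adjusted p = 0.122) in BORIS KO spermatocytes. Over all 11 spermatocyte libraries it averaged 52.5 ± 12.9 CPM (SD, n = 6) in those with 1 *Ctcf* copy and 2.30 ± 0.74 CPM (SD, n = 5) in those with both. The groups did not overlap (exact permutation test, two-sided, p = 0.00433, the smallest that 462 arrangements allow; this grouping was chosen after the values were seen).

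Across the genome, 64 of 14747 genes tested were called at adjusted p < 0.05 and a fold change above 2 (0.434%), 50 of them higher in CM (0.339%) and 14 lower (0.0949%). Among the 50 were 9 genes of chromosome X and 1 of chromosome Y, and none of the 14 lay on a sex chromosome. No gene passed adjusted p < 0.001 in edgeR, while 4391 had an unadjusted p under 0.05, and DESeq2 called 1175 genes at adjusted p < 0.05 (7.97%) and 398 at 0.001. With all 4 genotypes in 1 edgeR fit 515 of 15263 genes were called (3.37%). All 64 were also DESeq2 calls at adjusted p < 0.001. For each of the 64 the CM libraries lay all above or all below both WT libraries, which held for 30.3% (above) and 21.7% (below) of all genes tested. The count rested on the set of libraries: it was 2163 without CM library 1, 0 without CM library 2 or 3 and 1 without either WT library, and the 64 genes were all called again without CM library 1. With 2 against 3 libraries an exact permutation test of a single value cannot give a p under 0.2.

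**Figure D1:**
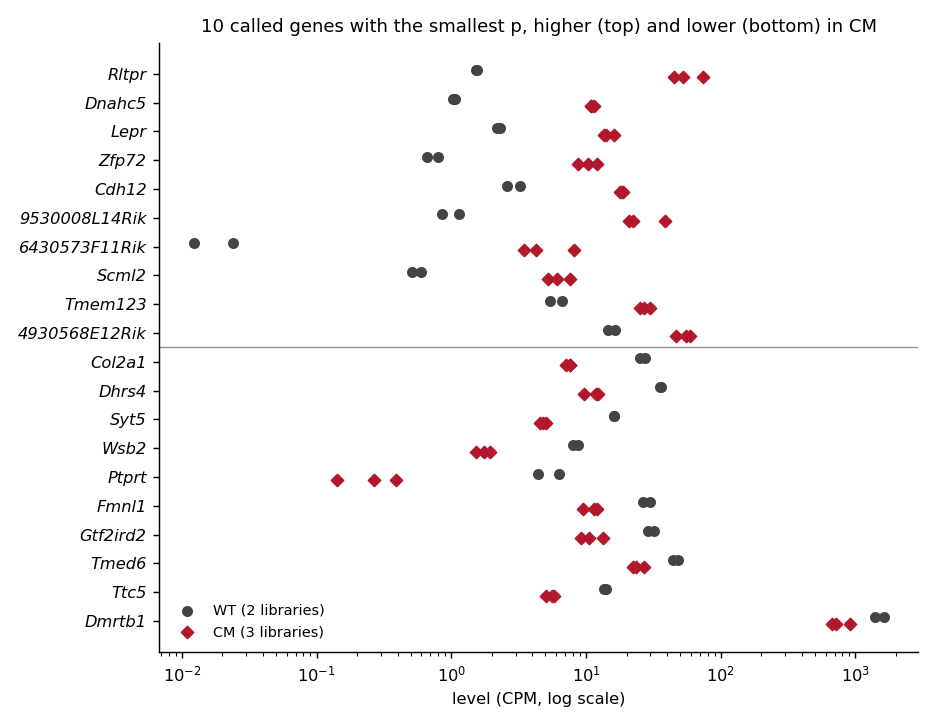
Level of 20 called genes in the 5 spermatocyte libraries, in CPM on a log axis. Circles are the 2 WT and diamonds the 3 CM libraries. The upper 10 genes are those with the smallest p among genes higher in CM and the lower 10 those among genes lower in CM. For no gene do the groups overlap.

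Genes of the X chromosome stood higher in CM as a group. The 997 X-linked genes together took 0.0165% and 0.0153% of all counts in WT spermatocytes and 0.0463%, 0.0785% and 0.122% in CM libraries 1, 2 and 3. All 3 CM libraries lay above WT and were spread over a range wider than the distance of CM library 1 from WT (means 0.0823% ± 0.0380 (SD, n = 3) against 0.0159% ± 0.00087 (SD, n = 2), exact permutation test, two-sided, p = 0.2). The share remained well below that of round spermatids, which was 0.857% to 0.922% in WT.

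The same share was 0.0777%, 0.0755% and 0.0316% in CTCF HET and 0.0159%, 0.0179% and 0.0174% in BORIS KO spermatocytes. The 6 libraries with 1 *Ctcf* copy averaged 0.0719% ± 0.0312 (SD) and the 5 with both copies 0.0166% ± 0.00108 (SD), without overlap (exact permutation test, two-sided, p = 0.00433, the smallest possible, in a grouping chosen after the values were seen). CM and CTCF HET overlapped (exact permutation test, two-sided, p = 0.4, where 0.1 is the smallest p possible). The numbers of genes with 1 to 9 counts were also low in these 6 libraries, at 169 to 593 in CTCF HET against 3711 to 3894 in BORIS KO, and the part of this in the X-linked values was not tested.

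**Figure D2:**
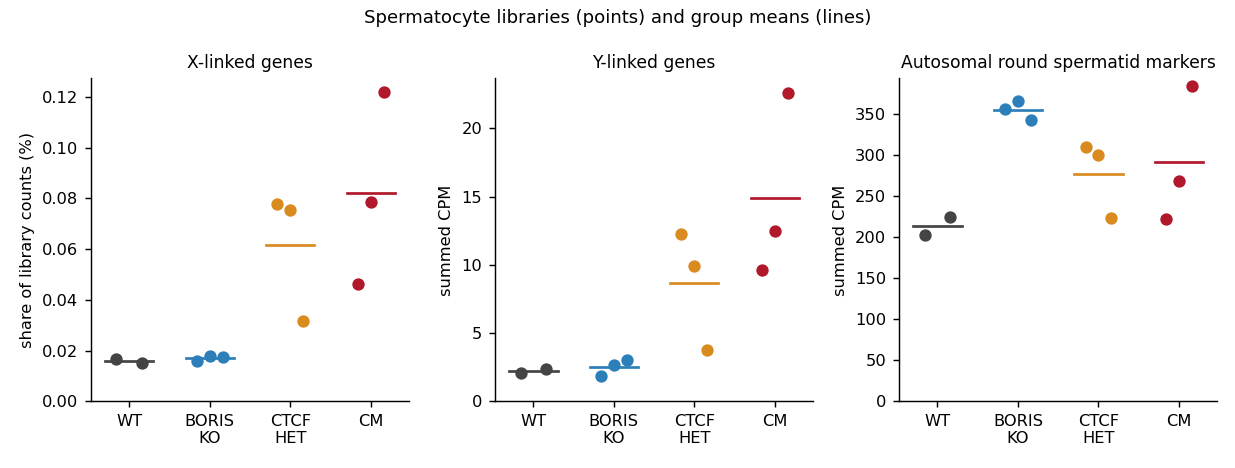
Values of the 11 spermatocyte libraries by genotype (points) with group means (lines): the share of counts on X-linked genes in percent, the summed level of Y-linked genes in CPM and the summed level of autosomal round spermatid markers in CPM. The CM libraries lie above both WT libraries for the X and Y, while 1 CM library lies within the WT range for the round spermatid markers.

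A filter on low counts lets X-linked genes pass through the CM libraries, where they are high, so the genes seen in WT were examined on their own. Of the X-linked genes, 205 had at least 10 counts in both WT libraries. Their median log2 fold change was 2.02, 198 of them (96.6%) had a value above 0, and for 158 (77.1%) all CM libraries lay above WT. The 12908 autosomal genes under the same condition had a median of -0.08, 44.6% above 0 and 29.1% with all CM libraries above WT. Genes of like level in WT also differed: in the class of 0.3 to 1 CPM the median was 2.04 over 95 X-linked and 0.13 over 1730 autosomal genes, and in the class of 1 to 3 CPM it was 2.26 over 28 and 0.06 over 1595.

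Among all 395 X-linked genes tested, 9 were called higher (2.28%) and none lower, beside 37 higher (0.267%) and 14 lower (0.101%) of 13844 autosomal genes. At an unadjusted p under 0.05, 193 X-linked genes were higher and 0 lower, and DESeq2 called 166 higher and 0 lower. Of the 395, 205 had at least 10 counts in both WT libraries. Others could pass the filter through the CM libraries, where they are high, so the lack of lower genes was partly set by the filter. The median of the tested X-linked genes was 2.33, while the medians of the 19 autosomes ran from -0.18 to 0.19. In every alternative tried it stayed between 1.78 and 2.77, although the number of X-linked genes called ran from 0 to 182.

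**Figure D3:**
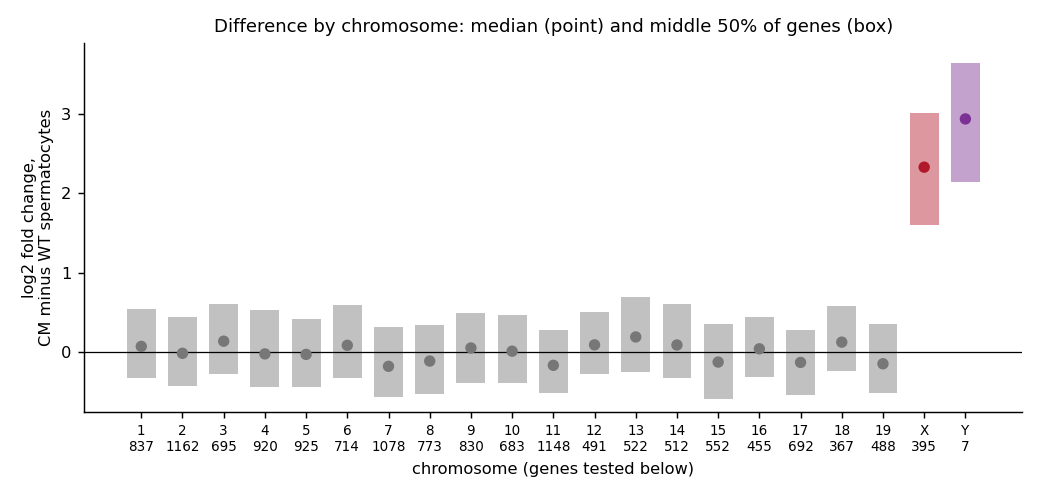
Log2 fold change of CM minus WT spermatocytes by chromosome, with the median (point) and the middle 50% of the genes tested (box), and the number of genes tested under each chromosome. The medians of the autosomes lie between -0.18 and 0.19 and that of the X at 2.33. X-linked genes that passed the filter only through the CM libraries are part of the plot.

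*Scml2*, a germline Polycomb protein, had the smallest p of the X-linked genes. It was at 0.596 and 0.515 CPM in WT and at 6.14, 5.25 and 7.62 CPM in CM (log2 fold change 3.43 ± 0.32, adjusted p = 0.0205, or 0.115 with all 4 genotypes in the fit). *Taf7l*, a germ cell paralog of a subunit of the general transcription factor TFIID, was at 1.02 and 1.12 CPM in WT and at 6.29, 9.20 and 14.3 CPM in CM (3.15 ± 0.43, adjusted p = 0.0453). All 3 CM libraries were above WT in both, with *Taf7l* in the order of the X share and *Scml2* nearly level.

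*Taf9b*, another TFIID paralog gene, was at 0.679 and 0.625 CPM in WT and at 3.93, 5.63 and 6.89 CPM in CM. *Fmr1*, whose protein binds RNA at ribosomes, was at 0.787 and 0.588 CPM in WT and at 5.09, 7.88 and 8.10 CPM in CM. *Ndufa1*, a subunit of respiratory complex I, had the smallest fold change of the 9, with 4.09 and 3.85 CPM in WT and 14.8, 15.2 and 10.97 CPM in CM (1.71 ± 0.22). Of these, *Ndufa1* alone was lowest in the CM library with the highest X share.

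The uncharacterised *2610029G23Rik* had a log2 fold change of 3.71 ± 0.35, the largest of the 9. The other 3 called X-linked genes, named here because they complete the set, were *Nxf2* (3.05 ± 0.38), an mRNA export factor, *Ap1s2* (3.31 ± 0.45), a clathrin adaptor subunit, and *Alg13* (2.99 ± 0.42), which acts in protein glycosylation. In CTCF HET spermatocytes the 9 genes had log2 differences of 0.46 (*Ndufa1*) to 3.75 (*2610029G23Rik*), the latter with an adjusted p of 0.00918.

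Y-linked genes also had higher levels in CM. Their summed level was 2.10 and 2.34 CPM in WT and 9.63, 12.5 and 22.6 CPM in CM. Those tested could pass the filter on low counts through the CM libraries, so their direction was partly set by it. Y-linked genes seen in WT were not examined on their own. All 7 of 13 that were tested had a higher level in CM (median log2 fold change 2.94) and 1 was called, *Usp9y*, a ubiquitin-specific protease at 0.227 and 0.429 CPM in WT and 3.27, 5.04 and 5.25 CPM in CM (3.72 ± 0.46, adjusted p = 0.0392).

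Round spermatids express X-linked genes, so their markers are given beside these values. The 28 autosomal markers of round spermatids summed to 203 and 225 CPM in WT spermatocytes, to 222, 268 and 385 CPM in CM libraries 1, 2 and 3, and to 343 to 367 CPM in BORIS KO. In CTCF HET it was 310, 300 and 224 CPM, where the X shares were 0.0777%, 0.0755% and 0.0316%. The marker sums of CM and of CTCF HET followed the order of their X shares. CM library 1 and CTCF HET library 3 had sums within the WT range and X shares above it, and BORIS KO had sums above WT with X shares of 0.0159% to 0.0179%. The part of round spermatid RNA in the X-linked values was not tested. In WT round spermatids the sum was 3364 to 3384 CPM. Of the 27 autosomal markers tested 0 were called by edgeR and 11 by DESeq2, 14 had an unadjusted p under 0.05 and a higher level in CM, 0 had a lower one, and the median log2 fold change was 1.10.

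Outside the sex chromosomes, 37 genes placed on an autosome and 3 genes without a place in the annotation were called higher. *Dnahc5*, a dynein heavy chain of cilia and flagella, was at 1.04 and 1.07 CPM in WT and 10.9, 11.5 and 10.97 CPM in CM (log2 fold change 3.33 ± 0.22, adjusted p = 0.0151). *Lepr*, the leptin receptor, was at 2.18 and 2.32 CPM in WT and 16.1, 13.6 and 14.1 CPM in CM (2.62 ± 0.20). *Cdh12*, a cadherin of the cell surface, was at 3.25 and 2.60 CPM in WT and 18.4, 17.9 and 18.7 CPM in CM (2.57 ± 0.20). In these 3 genes CM library 1, which lay nearest to WT across the genome, was as high as the other CM libraries.

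*9530008L14Rik* was at 0.846 and 1.14 CPM in WT and 38.8, 20.8 and 22.5 CPM in CM (4.71 ± 0.37). *Zfp72*, a zinc finger protein gene, was at 0.799 and 0.662 CPM in WT and 10.3, 8.76 and 12.02 CPM in CM (3.75 ± 0.28). *6430573F11Rik* had 2 and 1 counts in the WT libraries and 8.13, 4.23 and 3.49 CPM in CM, a ratio of 298 over summed counts (exact 95% interval 102 to 1449, counting error only). *9530008L14Rik* and *6430573F11Rik* were highest in CM library 1.

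*Kat2b*, the histone acetyltransferase PCAF, was at 0.751 and 0.711 CPM in WT and 6.10, 5.21 and 9.70 CPM in CM (3.19 ± 0.38). *Esco2*, which acetylates cohesin in S phase, was at 6.33 and 6.40 CPM in WT and 17.1, 17.9 and 20.6 CPM in CM (1.47 ± 0.18, adjusted p = 0.0392, and 0.93 once the trend on base composition was removed). *Pmaip1*, which encodes the proapoptotic BH3-only protein NOXA, was at 5.64 and 5.12 CPM in WT and 20.1, 16.1 and 16.1 CPM in CM (1.62 ± 0.19). In all 3 the lowest CM library was more than 2-fold above the highest WT library.

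*Tmem123*, a membrane protein gene, was at 6.67 and 5.44 CPM in WT and 25.2, 26.8 and 30.0 CPM in CM (2.10 ± 0.19). *4930568E12Rik*, without a place in the annotation, was at 16.3 and 14.6 CPM in WT and 55.7, 46.7 and 58.9 CPM in CM (1.73 ± 0.16). Among the called genes outside the rule for names, *Sfr1*, whose product assists the recombinases of homologous recombination, was at 378 and 254 CPM in WT and 906, 1244 and 1257 CPM in CM (1.77). It was chosen here because it was 1 of 2 genes called higher in CM and lower in BORIS KO, where it differed from WT by -1.30. The other was *Hnrnpc*, an RNA-binding protein gene (1.18 in CM, -1.01 in BORIS KO).

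Lower in CM were 14 genes, all on autosomes. *Col2a1*, type II collagen, was at 25.3 and 27.3 CPM in WT and 7.55, 7.67 and 7.11 CPM in CM (log2 fold change -1.89 ± 0.15, adjusted p = 0.0151). *Dhrs4*, a peroxisomal retinal reductase, was at 35.3 and 36.1 CPM in WT and 11.8, 9.71 and 12.2 CPM in CM (-1.74 ± 0.15, adjusted p = 0.0205). *Syt5*, a synaptotagmin of secretory vesicles, was at 16.2 and 16.3 CPM in WT and 5.05, 4.56 and 4.84 CPM in CM (-1.83 ± 0.17). The libraries of each genotype lay close together in these 3 genes.

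*Wsb2*, a SOCS box protein gene, was at 8.06 and 8.72 CPM in WT and 1.95, 1.76 and 1.53 CPM in CM (-2.33 ± 0.23). *Ptprt*, a receptor tyrosine phosphatase, was at 4.40 and 6.29 CPM in WT and 0.265, 0.392 and 0.141 CPM in CM (-4.38 ± 0.46, adjusted p = 0.0302). *Ccr3*, a chemokine receptor chosen after its values were seen, had 196 counts in WT and 1 in CM, a WT to CM ratio of 273 (exact 95% interval 48.4 to 10820, counting error only). *Ptprt* and *Ccr3* were the called genes nearest to 0 in CM. Of 10273 genes with at least 1 CPM in both WT libraries, 0, 25 and 13 were at 0 in CM libraries 1, 2 and 3, and whether low counts were handled alike in all libraries is not given in the sources used here, so a level near 0 in CM, and a ratio against it, may not be that of the cells.

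*Dmrtb1*, which acts in the transition from mitosis to meiosis, had the highest level of the 14, with 1398 and 1627 CPM in WT and 908, 719 and 670 CPM in CM (-1.06 ± 0.13, adjusted p = 0.0426, and -0.55 once the trend on base composition was removed). *Inpp5e*, a phosphoinositide phosphatase of primary cilia, was at 91.2 and 102 CPM in WT and 46.9, 27.9 and 30.7 CPM in CM (-1.54 ± 0.21). *Fmnl1*, a formin (-1.43 ± 0.16), *Gtf2ird2* (-1.54 ± 0.18), *Ttc5* (-1.41 ± 0.18) and *Tmed6* (-1.02 ± 0.13), which acts in cargo transport from the endoplasmic reticulum, completed the 10 with the smallest p.

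The peaks of CTCF and BORIS used here were mapped in germ cells of whole testis. They came as 1 peak list per antibody and genotype, and so with no replicate error. CTCF had also been mapped in sorted WT and BORIS KO spermatocytes, which was not used here, but the series holds no such map for CM spermatocytes. Within 2 kb of an annotated start, 22 of 5401 genes with a WT CTCF peak were called (0.407%), beside 61 of all 14246 genes with an annotated start (0.428%), 17 of 2906 with a BORIS peak (0.585%) and 35 of 8270 with neither (0.423%). The 3972 genes with a WT CTCF peak that no CM CTCF peak overlapped held 10 genes called higher and 4 lower (0.352%). The 1429 genes whose WT CTCF peaks were all overlapped in CM held 4 and 4 (0.56%). The median log2 fold changes of these groups lay between -0.12 and 0.06, and the called genes thus included starts with lost, kept and absent CTCF peaks.

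The sequences under 4 of these peaks are shown to set *Dhrs4*, a called gene whose WT CTCF peaks were both without a CM peak, beside *Rltpr*, whose peak was kept, and *Wsb2*, which kept the higher of its 2 peaks. They are from the mm9 genome, plus strand, around the summit and outside annotated exons. Capitals mark CCCTC, the element CTCF is named for, searched on both strands (as CCCTC or GAGGG). It was present in 22142 of 34625 windows of 201 bases around the WT CTCF summits (63.9%).
Dhrs4 intron, chr14:56098002-56098202, CTCF and BORIS peak, no CTCF peak in CM: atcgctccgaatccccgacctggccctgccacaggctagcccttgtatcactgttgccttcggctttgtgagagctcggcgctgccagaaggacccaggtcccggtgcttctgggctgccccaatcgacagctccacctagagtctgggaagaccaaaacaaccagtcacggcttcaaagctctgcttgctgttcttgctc
Dhrs4 upstream, chr14:56097452-56097594, CTCF peak, none in CM: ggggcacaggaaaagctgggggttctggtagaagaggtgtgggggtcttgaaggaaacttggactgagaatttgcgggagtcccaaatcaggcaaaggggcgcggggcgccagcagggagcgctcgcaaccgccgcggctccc
Rltpr upstream, chr8:108209717-108209917, CTCF peak kept in CM: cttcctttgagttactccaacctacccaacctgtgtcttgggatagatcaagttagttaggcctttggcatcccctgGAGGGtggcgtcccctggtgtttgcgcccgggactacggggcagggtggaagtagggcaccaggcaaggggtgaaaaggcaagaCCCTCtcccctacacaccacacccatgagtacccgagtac
Wsb2 intron, chr5:117808835-117809035, CTCF and BORIS peak, CTCF peak kept in CM: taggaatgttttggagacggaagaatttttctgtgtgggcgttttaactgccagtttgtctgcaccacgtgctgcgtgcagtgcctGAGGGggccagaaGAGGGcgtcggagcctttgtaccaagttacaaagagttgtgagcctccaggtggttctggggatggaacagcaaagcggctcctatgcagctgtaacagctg
The *Dhrs4* summits lay 507 bases after and 43 bases before its annotated start, that of *Rltpr* 357 bases before and that of *Wsb2* 1621 bases after an annotated start. The windows of *Rltpr* and *Wsb2* hold 2 matches each and those of *Dhrs4* 0, which are matches of letters only. Other called genes went the other way. Windows of peaks without a CM peak at *Obfc2a* and *Sfr1* hold 2 matches each, and those of kept peaks at *Ptprt* and *Ttc5* hold 0. The matches thus do not separate lost from kept peaks, and windows away from peaks were not searched. *Dhrs4* and *Wsb2* fell and *Rltpr* rose in CM.

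Meiotic gene lists held few calls, and with 0.434% of all genes tested called, counts this low say little about a list. None of 14 genes of the synaptonemal complex and chromosome axis was called (median log2 fold change 0.63 beside 0.01 over all genes tested, and 0.28 once the trend on base composition was removed). DESeq2 called 5 of the 14 higher and 0 lower, beside 7.97% of all genes tested called in either direction. *Sycp1*, the transverse filament of the synaptonemal complex, was at 479 and 360 CPM in WT and 980, 1606 and 2149 CPM in CM (1.84 ± 0.35, adjusted p = 0.0593). *Sycp2*, of the lateral element, was at 2764 and 2206 CPM in WT and 2751, 3865 and 4127 CPM in CM (0.46 ± 0.21, and -0.14 once the trend on base composition was removed), and there CM library 1 overlapped WT. *Sycp1* stood above WT in all CM libraries without passing the threshold, and passed it in DESeq2 (adjusted p = 8.38e-07), with all 4 genotypes in the fit (adjusted p = 0.00603) and, at a log2 fold change of 1.15, once the trend on base composition was removed (adjusted p = 0.0437).

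Of 40 genes of double-strand breaks and repair 0 were called, with a median of 0.28 (0.10 once the trend on base composition was removed), and DESeq2 called 7 higher and 0 lower. *Spo11*, which makes the breaks, was at 150 and 142 CPM in WT and 201, 174 and 181 CPM in CM (0.27 ± 0.10, adjusted p = 0.131, and 0.05 with the trend removed), and *Atr*, a kinase that acts in silencing of the sex body, was at 1007 and 932 CPM in WT and 1312, 1348 and 1259 CPM in CM (0.36 ± 0.09, adjusted p = 0.0778, and -0.01 once the trend on base composition was removed). Of 21 genes of cohesin and CTCF partners *Esco2* was called (median 0.23, and -0.09 with the trend removed), and of 35 genes of the meiotic cell cycle none (0.02). DESeq2 called 5 of the 21 and 2 of the 35 higher, and 0 lower. The 25 genes of the piRNA pathway held no call (-0.01).

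Markers of meiotic stages differed between the genotypes in sum. They held few calls, which says little where 0.434% of all genes tested were called. The 15 leptotene and zygotene markers summed to 4930 and 4052 CPM in WT and to 5351, 6840 and 7411 CPM in CM, with no gene called and a median log2 fold change of 0.54, which was 0.10 once the trend on base composition was removed. The 22 pachytene and diplotene markers summed to 23370 and 24090 CPM in WT and 22040 to 22740 CPM in CM, also with no call (-0.20, and -0.19 with the trend removed). The 22 spermatogonial markers summed to 1554 and 1780 CPM in WT and 1191, 939 and 876 CPM in CM. *Dmrtb1* held most of that sum, and the 16 tested had a median of 1.23. DESeq2 called 8 of these 16 higher and 1 lower. It called 3 of the 15 leptotene and zygotene and 1 of the 22 pachytene and diplotene markers higher, and 0 lower. Over all genes tested it called 7.97%. The sum of the early prophase markers was higher and that of the later markers lower in every CM library than in both WT libraries, and the part of a shift in stage in the values of single genes was not tested.

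*Dmrt1*, a transcription factor of spermatogonia, was the spermatogonial marker called higher, with 0.441 and 0.466 CPM in WT and 2.48, 4.06 and 4.70 CPM in CM (2.98 ± 0.42, adjusted p = 0.0488). It differed by 0.29 in CTCF HET and by -0.61 in BORIS KO, and by 3.27 beyond the sum of both (adjusted p = 0.0471, but 0.0553 with the scaling of DESeq2 and 0.0845 with the trend on base composition removed).

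Lists of general function also held few calls, which say little where 0.434% of all genes tested were called. Among them, 1 of 36 apoptosis genes was called, *Pmaip1* (median 0.15), 0 of 22 stress and immediate early genes (-0.14), and 1 of 25 genes of DNA methylation and chromatin, *Scml2* (0.13). Of 74 cytosolic ribosomal proteins 0 were called (-0.37), of 75 respiratory chain and ATP synthase genes 1, the X-linked *Ndufa1* (-0.17), of 36 proteasome subunits 0 (-0.01), of 31 genes of cholesterol and fatty acid synthesis 0 (0.06), of 18 histone cluster genes 0 (-0.37) and of 30 small RNA genes 0 (-0.55). Once the trend on base composition was removed, the median was -0.25 for the ribosomal proteins, 0.007 for the respiratory chain list and 0.02 for the histone cluster genes. No gene was called among 10 autosomal retrogenes of X-linked genes (-0.08), which take over for their silenced parents in meiosis. None was called either among the Sertoli (15 tested, median -0.21), Leydig (8, 1.31), stromal (13, 0.13) and macrophage (7, 0.10) markers, and no erythroid marker could be tested. With the trend removed the Sertoli median was 0.17 and the macrophage median -0.11.

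Of 25 genes that the study names, a list drawn in part from these animals and so no independent evidence of direction, 18 were tested here and *Dhrs4* was called. *Abca1*, a cholesterol exporter, was at 0.143 and 0.0981 CPM in WT and 1.16, 1.59 and 1.09 CPM in CM (3.32 ± 0.56, adjusted p = 0.0564). *Prss38*, a serine protease, was at 6.70 and 7.39 CPM in WT and 3.75, 3.67 and 1.92 CPM in CM (-1.25 ± 0.33, adjusted p = 0.0787). The groups did not overlap in either gene, and neither passed the threshold.

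*Kit*, the receptor of stem cell factor, was at 0.572 and 0.662 CPM in WT and 0.663, 0.797 and 1.29 CPM in CM (0.50 ± 0.51, adjusted p = 0.554). *Tcp11*, a sperm protein gene, was at 716 and 868 CPM in WT and 570, 390 and 345 CPM in CM (-0.94 ± 0.20, adjusted p = 0.065). The other 7, among them *Prss50*, *Gal3st1*, *Cask* and *Irak1*, had too few counts to be tested in spermatocytes. *Prss50* was at 0.0238 and 0.0368 CPM in WT and at 0 in all CM libraries. At these depths a change of such genes was not detectable.

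The difference between CM and WT varied with base composition. Over 5 equal classes of the autosomal genes by GC content of the longest transcript, from 33.0-44.5% to 55.8-73.0%, the median log2 fold change was 0.32, 0.14, -0.06, -0.27 and -0.46. The 50 genes called higher had a median GC of 44.1% and the 14 called lower 54.9%, beside 50% over all genes tested. When each library's trend on GC was removed by an offset, the autosomal medians lay between -0.05 and 0.01, 184 genes were called (143 higher and 41 lower), and 52 of the 60 called genes with a GC value were called again. X-linked medians were 2.61 to 1.16 over the same classes and 1.65 to 2.19 with the offset.

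**Figure D4:**
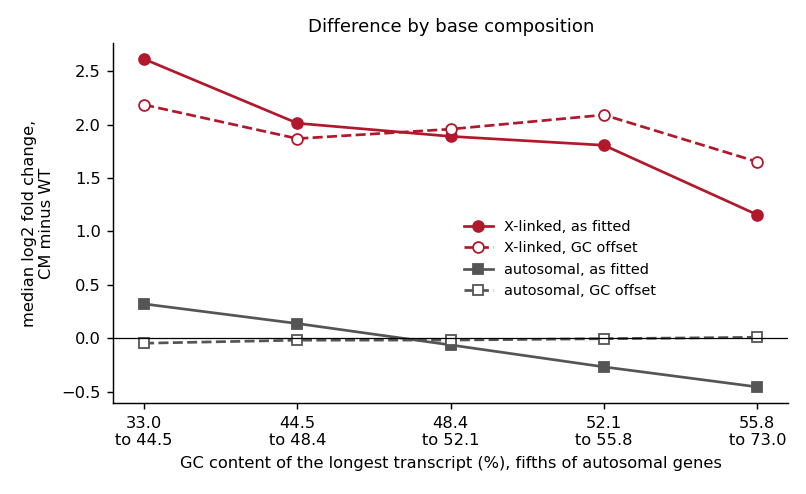
Median log2 fold change of CM minus WT spermatocytes over 5 equal classes of the autosomal genes by GC content of the longest transcript (percent), for X-linked (circles) and autosomal genes (squares). Filled symbols and full lines are the values as fitted, and open symbols and broken lines those with each library's trend on GC content removed. The autosomal medians run from 0.32 to -0.46 as fitted and lie within -0.05 and 0.01 after the offset, while the X-linked ones stay above 1.

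The CM effect in spermatocytes was then set against that in round spermatids, which share no library. The difference was called for 597 of 17077 genes (3.5%), with 584 more positive in spermatocytes (3.42%) and 13 more negative (0.0761%). On the X the call was made for 87 of 657 genes, all more positive in spermatocytes, beside 460 more positive and 13 more negative of 15697 autosomal genes. In spermatocytes alone 395 X-linked genes passed the filter. The others could pass through the round spermatid libraries while near 0 in WT spermatocytes, so the lack of more negative X-linked genes was partly set by the filter. In separate fits *Zfp72* differed from WT by 3.75 in spermatocytes and by -0.57 in round spermatids (difference 4.38, adjusted p = 0.00609), *9530008L14Rik* by 4.71 and -0.31 (5.07) and *Kat2b* by 3.19 and -0.62 (3.86). WT round spermatids held them, in this order, at 28.3 to 47.8, 35.0 to 43.9 and 64.1 to 65.9 CPM. WT spermatocytes held them at only 0.662 to 1.14 CPM. The part of round spermatid RNA in these differences was not tested. In the other direction *Tomm34*, a partner of chaperones, differed by -0.62 and 1.503 (-2.03, adjusted p = 0.0221). CM against WT gave 1 call in round spermatids (*Rltpr*, 0.00654% of 15298 genes) and 3468 in whole testis (21.2% of 16378, with 15.3% higher and 5.9% lower).

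The count of 597 rested on the WT libraries of both cell types: it was 0 without either WT spermatocyte library and 4 without WT round spermatid library 2 or 3, and without CM spermatocyte library 1 it was 984. With the scaling of DESeq2 it was 712, and the median of all genes moved from -0.10 to 0.05. CM round spermatid library 2 stood apart with an X share of 1.73%, against 0.71% and 0.839% in the other CM round spermatid libraries, and without it 571 genes were called.

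The genes called in spermatocytes had their own values in the other samples. Of the 50 higher genes, 27 were called higher and 0 lower in CTCF HET spermatocytes (8.55% of 15263 genes were called there, 2.57% higher and 5.98% lower) and 8 higher and 2 lower in BORIS KO spermatocytes (1.97%, with 0.642% higher and 1.32% lower). Of the 14 lower genes, 6 were called lower in CTCF HET and 2 in BORIS KO spermatocytes, and 6 of 13 tested in whole testis of CM. Of the 50 higher genes, 8 of 49 tested were called higher and 1 lower in CM whole testis, where 15.3% of all genes were called higher, and 1 was called in CM round spermatids. CTCF HET, BORIS KO and CM were compared with the same 2 WT libraries, so these counts are not independent. Each CTCF HET library had 960 to 1978 genes at 0 that held at least 10 counts in both WT libraries. The part of these zeros in the genes called lower there was not tested. *Ptprt* differed from WT by -5.27 in BORIS KO and -0.13 in CTCF HET, *6430573F11Rik* by 7.02 and 1.23, while *Col2a1* differed by 0.40 and -1.33 and *Wsb2* by -0.07 and -1.43. *Col2a1* (-2.04), *Dhrs4* (-1.58) and *Syt5* (-1.34) were also lower in CM whole testis, and *Wsb2* (0.12) was not.

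**Figure D5:**
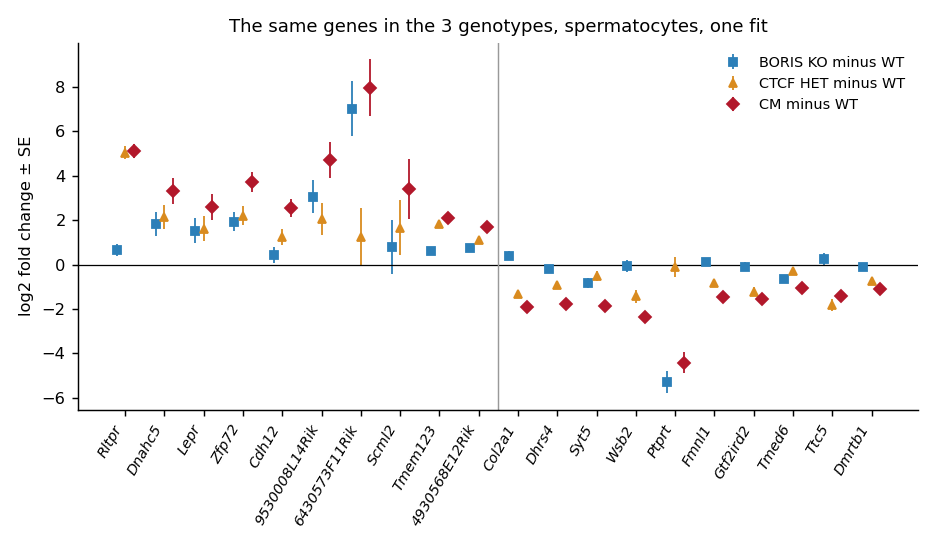
Log2 fold change against WT (symbol) with its SE (line) in BORIS KO, CTCF HET and CM spermatocytes, from a fit of all 4 genotypes, for the 10 called genes with the smallest p in each direction. The 3 mutants share the WT libraries. The value farthest from 0 is that of 6430573F11Rik in CM (7.96). In the single mutants the values farthest from 0 are 6430573F11Rik (7.02) and Ptprt (-5.27) in BORIS KO and Rltpr (5.04) in CTCF HET. Other genes such as 9530008L14Rik (3.06) and Zfp72 (1.92) in BORIS KO and Zfp72 (2.20) and Ttc5 (-1.82) in CTCF HET also differ from WT.

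Whether CM departs from the sum of the single mutants was tested with all 11 spermatocyte libraries. The log2 value of CM differed from that sum for 432 of 15263 genes (2.83%), with 350 above it (2.29%) and 82 below (0.537%), and the split was 249 above and 133 below with the scaling of DESeq2. Of the genes with at least 10 counts in both WT libraries, 1702, 1978 and 960 were at 0 in CTCF HET libraries 1, 2 and 3. In BORIS KO libraries it was 1, 5 and 4. Zeros in CTCF HET lower the sum, and their part in the count was not tested. *Spcs3*, a subunit of signal peptidase, was at -0.60 (CTCF HET), -0.68 (BORIS KO) and 0.26 (CM) relative to WT, 1.54 above the sum (adjusted p = 0.00114). *Fubp1*, a DNA- and RNA-binding protein gene, was at 0.24, -0.93 and 0.67 in the same order (1.36 above). *Tex264*, a receptor of autophagy of the endoplasmic reticulum, was at 0.65, 1.14 and 0.07 (-1.72, adjusted p = 0.00114), and *Map1lc3a*, an LC3 protein of autophagosomes, at 0.47, 0.38 and -0.63 (-1.48). With the trend on base composition removed *Fubp1* was 0.59 above the sum, a fold change under 2, and *Map1lc3a* was at -1.03 (adjusted p = 0.0956), so neither was called, and the CM value of *Map1lc3a* against WT turned to 0.06. *Tex264* remained called (-1.30, adjusted p = 0.0325), and *Spcs3* had no GC value.

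Of the 64 genes called in CM, 8 were called in this test, 5 above and 3 below the sum, all of them among the 50 higher genes. *Esco2* was 1.65 above (adjusted p = 0.0175) and *Pmaip1* 1.22 above (adjusted p = 0.0195), and neither was called with the trend on base composition removed (0.84 and 0.66, adjusted p = 0.204 and 0.239), whereas *Col2a1* and *Wsb2* were at -0.99 (adjusted p = 0.0453, fold change under 2) and -0.86 (adjusted p = 0.208). The count depended on the libraries, from 28 without WT library 1 to 1080 without CTCF HET library 3, and was 77 (36 above and 41 below) with the GC trend removed.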

How the data were processed

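The authors sequenced poly(A) RNA of the sorted spermatocytes from a single end after 18 cycles of PCR, aligned it to mm9 with STAR and deposited raw counts of reads for each gene symbol, not normalized. How reads were counted, with which gene models and whether by strand, is not given in the sources used here, so values of overlapping and antisense genes and close paralogs are uncertain. PCR copies are not independent molecules, and intervals cover counting error only. Libraries are separate preparations of 4 pooled mice each. The deposited peak lists hold positions, summits and heights, a signal whose normalization is not stated, and heights were used only to order the peaks of 1 gene.

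Genes were kept by filterByExpr (at least 10 counts, and 15 in total), scaled by TMM and tested by edgeR 4.0.16 (R 4.3.3), quasi-likelihood with robust estimation, over the 2 WT and 3 CM libraries. P-values were adjusted by Benjamini and Hochberg, and calls needed an adjusted p < 0.05 with a fold change above 2. The study's DESeq2 at 0.001 is an alternative here (DESeq2 1.42.0). The interactions were fitted over the WT and CM libraries of both cell types and over all 4 spermatocyte genotypes. The fits were tested on simulated data. Of 23284 genes, 21930 were placed on NCBIM37 (mm9) by GENCODE vM1, which gave GC content and starts. The members, the gene lists and the tests were chosen with earlier results of these data known. Named genes were *Ctcf*, *Ctcfl* and *Rltpr*, genes the study names, in each direction the 10 called genes with the smallest p and the 5 with the largest fold change among those with a mean of at least 5 CPM and no overlap, up to 4 called members of each list or else its 3 most abundant, and 3 per direction of each interaction. Alternatives were another scaling, other low-count filters, DESeq2, other thresholds, a replicate block, all 4 genotypes in the fit, each library left out, a peak window of 5 kb and, chosen after seeing the data, an offset for GC content and DESeq2 at 0.001.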

Additional observations from a re-analysis of the deposited data

Results flagged for a closer look

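The CM effect differed between spermatocytes and round spermatids for 597 genes by the interaction test. *9530008L14Rik* (5.07 on the log2 scale), *Zfp72* (4.38) and *Kat2b* (3.86) were more positive in spermatocytes, with the smallest p. All were far higher in WT round spermatids than in WT spermatocytes, and the part of round spermatid RNA in them was not tested. *Tomm34* (-2.03), *Zcchc14* (-1.89) and *Trrap* (-1.37) were more positive in round spermatids. The CM effect differed from the sum of the single mutant effects for 432 genes by the same kind of test, and the part of the zeros of CTCF HET libraries was not tested. *Spcs3* (1.54), *Zfp280d* (1.47) and *Fubp1* (1.36) lay above the sum, and *Tex264* (-1.72), *2310047M10Rik* (-1.65) and *Map1lc3a* (-1.48) below it, each among the smallest p in its direction. With the trend on base composition removed, *Zfp280d* (0.74), *Fubp1* (0.59) and *Map1lc3a* (-1.03) were not called, and *Spcs3* had no GC value. No group of libraries held the 4 that a check for single outlying samples needs.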

How the results depend on the processing

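The 64 calls in CM against WT became 1175 in DESeq2 (923 higher and 252 lower), 398 in DESeq2 at adjusted p < 0.001, 0 in edgeR at that threshold, 184 with the GC offset, 515 with all 4 genotypes in the fit and 948 in DESeq2 with all 4. Leaving out single libraries gave 0 to 2163, where a lone WT library is assumed to vary like the CM group. The 597 genes of the comparison with round spermatids became 1343 in DESeq2 and 0 at 0.001, with 0 to 984 when single libraries were left out and 4 without WT round spermatid library 2 or 3. The 432 genes beyond the sum became 672 in DESeq2, 0 at 0.001, 1136 without a fold threshold and 77 with the GC offset, with 28 to 1080 when single libraries were left out. All other alternatives kept these 3 counts within 1.5 times, except the replicate block. Of the 37 called genes named, all kept their call with the other scaling, with DESeq2 and with no low-count filter, and 4 lost it with the GC offset, 1 with all 4 genotypes and 2 of 24 at a mean of at least 5 CPM. Named genes that were not called changed sign in these cases: with the GC offset *Atr* (-0.0145), *Hspa2* (0.20), *Map1lc3a* (0.0632) and *Sycp2* (-0.14), and at a mean of at least 5 CPM *Hspa2* (0.0269). The GC offset also turned the sign of the median of 6 gene lists, among them cohesin and CTCF partners (-0.09) and Sertoli markers (0.17). The peak classes held 0.388% to 0.523% called within 5 kb.

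Libraries of WT and CM with the same replicate number did not deviate together (correlations of -0.14 and -0.04 for replicates 1 and 2), so the numbers were not read as pairing. With the replicate block 68 genes were called in CM against WT, 258 in the comparison with round spermatids and 231 beyond the sum, and 8 of the 37 named called genes lost their call.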
